A study of Homo sapiens with 12 samples.

Results

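The 10 genes described here encode chaperones and disposal factors of the endoplasmic reticulum (ER): HSPA5, HSP90B1, P4HB, PDIA3, PDIA4, PDIA6, CALR, CANX, HERPUD1 and SEL1L. They were chosen by gene name from the 35741 genes of a count table, and all 10 were among the 15715 genes expressed highly enough to be tested. The table holds mRNA counts of U87 cells, an established human glioblastoma line labelled wild type. Cells received sgPNA-10b at 150 nM (PNA-10b), sgPNA-21 at 150 nM (PNA-21) or both at 150 nM each (PNA-10b+21), or were left untreated (control), with 3 libraries per group. An sgPNA is a peptide nucleic acid, which carries bases on a backbone like that of a peptide. Each is designed against a microRNA's seed, that of miR-10b for sgPNA-10b and that of miR-21 for sgPNA-21. Treated cells were given the sgPNAs in bioadhesive nanoparticles for 72 h, so the combined group carried the dose of both. Empty nanoparticles and a control PNA are not among the labelled groups, so an effect of the particles cannot be told apart from an effect of the sgPNAs in comparisons with control. The labels do not say that the libraries of a group came from separate cultures, and p-values then measure only the spread between these libraries, which may be technical.

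Proteins that are secreted or placed in membranes fold in the ER. Chaperones hold unfolded chains there, oxidoreductases form and exchange their disulfide bonds, and lectin chaperones bind their sugar chains. When unfolded proteins build up, the unfolded protein response raises these genes through the transcription factors ATF6 and XBP1, while its kinase PERK slows translation and raises ATF4 targets such as DDIT3 and TRIB3. Proteins that cannot fold are passed back to the cytosol and degraded, a route called ER-associated degradation. Glioblastoma cells secrete matrix proteins and growth factors, which pass through this machinery.

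The promoters of many of these genes carry the ER stress response element (ERSE), the sequence through which ATF6 and XBP1 are known to act. It was searched on both strands as CCAAT and CCACG with 9 bases between them, in RefSeq windows of 250 bases before to 50 after the start site (GRCh38.p14). Of the 10 genes, 9 had such a window, with 2 each for PDIA4 and PDIA6, 4 for CANX and 1 each for the others. An ERSE was in any window of 5 of those 9, against 25 of all 27305 genes with a window (0.0916%). A related element, ERSE-II, was searched as ATTGG and CCACG with 1 base between them. It occurred in HERPUD1 and in 19 genes in all (0.0696%). Since such elements are already known from promoters of genes like these, both counts are background and not results of these data. The 2 motifs share CCACG but no match was counted under both names. The sequences below are the matches found in 6 of the 9 genes, 5 with an ERSE and 1 with an ERSE-II. Each runs 5′ to 3′ on the gene's own strand, with both parts of the motif in capitals.
HSPA5: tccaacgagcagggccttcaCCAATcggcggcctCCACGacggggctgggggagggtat
HSP90B1, distal: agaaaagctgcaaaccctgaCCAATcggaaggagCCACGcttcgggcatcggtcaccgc
HSP90B1, proximal: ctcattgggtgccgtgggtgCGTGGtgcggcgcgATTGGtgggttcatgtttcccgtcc
PDIA6: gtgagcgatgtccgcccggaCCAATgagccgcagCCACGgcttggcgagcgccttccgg
CALR: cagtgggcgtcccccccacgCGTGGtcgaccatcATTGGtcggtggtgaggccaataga
CANX: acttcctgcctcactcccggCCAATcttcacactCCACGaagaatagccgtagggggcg
HERPUD1: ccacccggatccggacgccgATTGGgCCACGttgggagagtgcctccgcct

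These stretches lie at chr9:125241371-125241429 (HSPA5, minus strand), chr12:103930196-103930254 and chr12:103930301-103930359 (HSP90B1, plus strand) and chr2:10812833-10812891 (PDIA6, minus strand). The others lie at chr19:12938364-12938422 (CALR), chr5:179698758-179698816 (CANX) and chr16:56932005-56932055 (HERPUD1), all on the plus strand. In CALR and in the proximal HSP90B1 stretch the motif reads on the opposite strand, so its parts appear as CGTGG and ATTGG. The windows of P4HB, PDIA4 and SEL1L held no match to ERSE or ERSE-II, and PDIA3 had no entry in the table. The unfolded protein response element, the core TGACGTGG bound by XBP1 and ATF6, was in 0 of the 9 genes. It was in 0.927% of all genes with a window. A match to letters is not a test of binding.

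**Figure D1:**
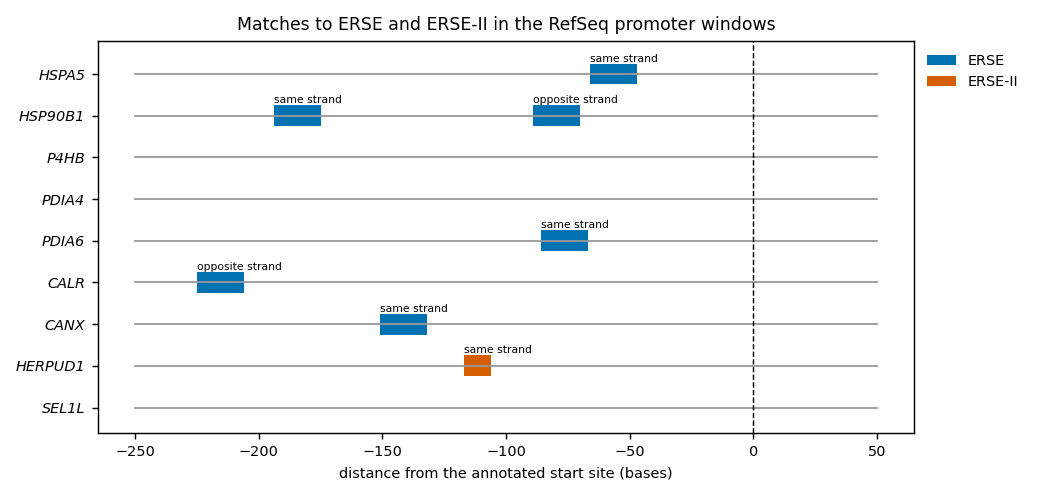
Position of ERSE (blue) and ERSE-II (orange) matches in the RefSeq promoter windows of 9 genes; the x axis is the distance from the annotated start site in bases, the dashed line is the start site, and the words above each bar give the strand of the match relative to the gene. All windows of a gene share a line, and each position is counted from its own window's start site. All matches lie upstream of the start, HSP90B1 has 2, and P4HB, PDIA4 and SEL1L have none.

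The mature miR-21-5p, the microRNA that sgPNA-21 is directed against, is shown for its seed (bases 2 to 8, in capitals), which lies in the 22 bases at chr17:59841273-59841294 on the plus strand of GRCh38.p14.
miR-21-5p: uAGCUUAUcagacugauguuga
Transcripts with the complement of this seed in the 3′ UTR are candidates for direct repression by miR-21. The longest 3′ UTR annotated in GENCODE release 29 was searched for ATAAGCT and TAAGCTA, the 7-base sites of this seed, which overlap each other in an 8-base match. A site was present in 0 of the 10 genes, against 2556 of 19477 genes with a 3′ UTR (13.1%). Shorter sites, other parts of the transcripts and other 3′ UTRs were not searched, and direct repression by miR-21 was not tested.

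All 10 are protein-coding genes, each on a chromosome of its own. In hg38, the build of the counts, with gene spans from GENCODE release 29, they are HSPA5 (chr9:125234853-125241330, minus strand), HSP90B1 (chr12:103930107-103953645, plus strand), P4HB (chr17:81843159-81860694, minus strand), PDIA3 (chr15:43746392-43773279, plus strand) and PDIA4 (chr7:149003062-149028641, minus strand). The other 5 are PDIA6 (chr2:10783391-10837977, minus strand), CALR (chr19:12938578-12944489, plus strand), CANX (chr5:179678628-179730925, plus strand), HERPUD1 (chr16:56932048-56944863, plus strand) and SEL1L (chr14:81471549-81533861, minus strand). Exons of HSPA5, PDIA4, HERPUD1 and SEL1L overlap no other gene. The other 6 share exon bases with neighbouring genes, nearly all on the opposite strand: 25.2% in PDIA6, 18.9% in PDIA3, 9.98% in P4HB, 9.95% in CALR, 7.60% in HSP90B1 and 2.41% in CANX. Whether the counting used strand is not given in the sources, which makes counts of these 6 less certain.

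Depth was ample for all 10 genes. Total counts per library ran from 12846676 to 18305820, and the counts of a single member from 1507 (the lowest library of HERPUD1) to 30432 (the highest library of HSP90B1). Levels below are CPM, counts relative to library size, after scaling of the libraries by TMM factors. The glioma and mesenchymal markers VIM and CD44 were high in U87, at 1842 ± 133 and 1454 ± 8.55 CPM in control (SD, n = 3). NES averaged 15.8 ± 0.938 CPM, GFAP 4.09 ± 0.861 CPM and OLIG2 1.65 ± 0.517 CPM in control, and S100B was at 0 to 4 counts in every library. Markers of leukocytes, endothelium, epithelium and oligodendrocytes (PTPRC, PECAM1, EPCAM and MBP) stayed at or below 5.08 CPM in every library, whereas the neuronal gene SNAP25 was at 60.8 to 86.7 CPM. SNAP25 fell by 0.29 ± 0.06 in PNA-21 and by 0.39 ± 0.06 in PNA-10b+21, and was at -0.11 ± 0.06 in PNA-10b. Of the 3 tested markers of other cell types 1 fell with PNA-10b, 2 with PNA-21 and 1 with PNA-10b+21, and 0 rose. Of the 5 tested glioma and mesenchymal markers 1 fell in PNA-10b, 1 rose and 2 fell in PNA-21, and 2 fell in PNA-10b+21. The shares over all genes are given with the results below, and the part of these markers in those results was not tested. In bulk RNA, fewer cells of a kind and less RNA per cell cannot be told apart.

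All 10 genes were expressed strongly in untreated U87, and together they held 0.902% ± 0.0340 of all counts with PNA-10b, 0.818% ± 0.00295 with PNA-21, 0.839% ± 0.0224 with PNA-10b+21 and 0.944% ± 0.0376 in control (SD, n = 3 each). Levels between genes can be compared only per length of exon. On that scale CALR was highest in control at 479 ± 32.1 CPM per kb, then HSPA5 (437 ± 28.0), HSP90B1 (408 ± 31.5), PDIA3 (245 ± 20.7), P4HB (231 ± 6.69), CANX (181 ± 8.44), PDIA4 (171 ± 6.47) and PDIA6 (82.8 ± 3.19). SEL1L (33.1 ± 0.826) and HERPUD1 (25.9 ± 0.568 CPM per kb), the disposal genes, were lowest. The order was the same in all 4 groups. In control, the neighbours CALR and HSPA5, HSPA5 and HSP90B1, PDIA3 and P4HB, and CANX and PDIA4 lay closer together than their SDs added, whereas the other neighbours were further apart.

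The main pattern was a fall of most of these genes relative to control in both groups that received sgPNA-21. Most estimates in PNA-10b were also negative, but smaller, and did not pass. In PNA-21, 9 of the 10 genes fell and 0 rose relative to control (edgeR's quasi-likelihood test, p adjusted after Benjamini and Hochberg over every tested gene, under 0.05), where 14.6% of all genes fell and 15.2% rose. In PNA-10b+21, 8 fell and 0 rose, where 13.4% of all genes fell and 13.6% rose. In PNA-10b, 0 of the 10 fell or rose with edgeR and with DESeq2, and 3.74% of all genes fell and 2.75% rose. An unadjusted p under 0.05 was found in PNA-10b for 4 of the 10 and for 20.6% of all genes. The falls were small: the median log2 fold change of the 10 genes was -0.09 with PNA-10b, -0.29 with PNA-21 and -0.24 with PNA-10b+21, against 0.00, -0.01 and 0.00 over all genes tested. Estimates in PNA-10b ran from -0.15 (HSP90B1) to 0.00 (CANX). Those not given gene by gene below were -0.13 (PDIA3), -0.12 (CALR), -0.11 (PDIA6), -0.09 (PDIA4) and -0.05 (SEL1L). The 3 comparisons share the control libraries. All treated libraries lay below all control libraries for 9 of the 10 with PNA-21 (20.9% of all genes), 9 with PNA-10b+21 (19.9%) and 0 with PNA-10b (12.8%).

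**Figure D2:**
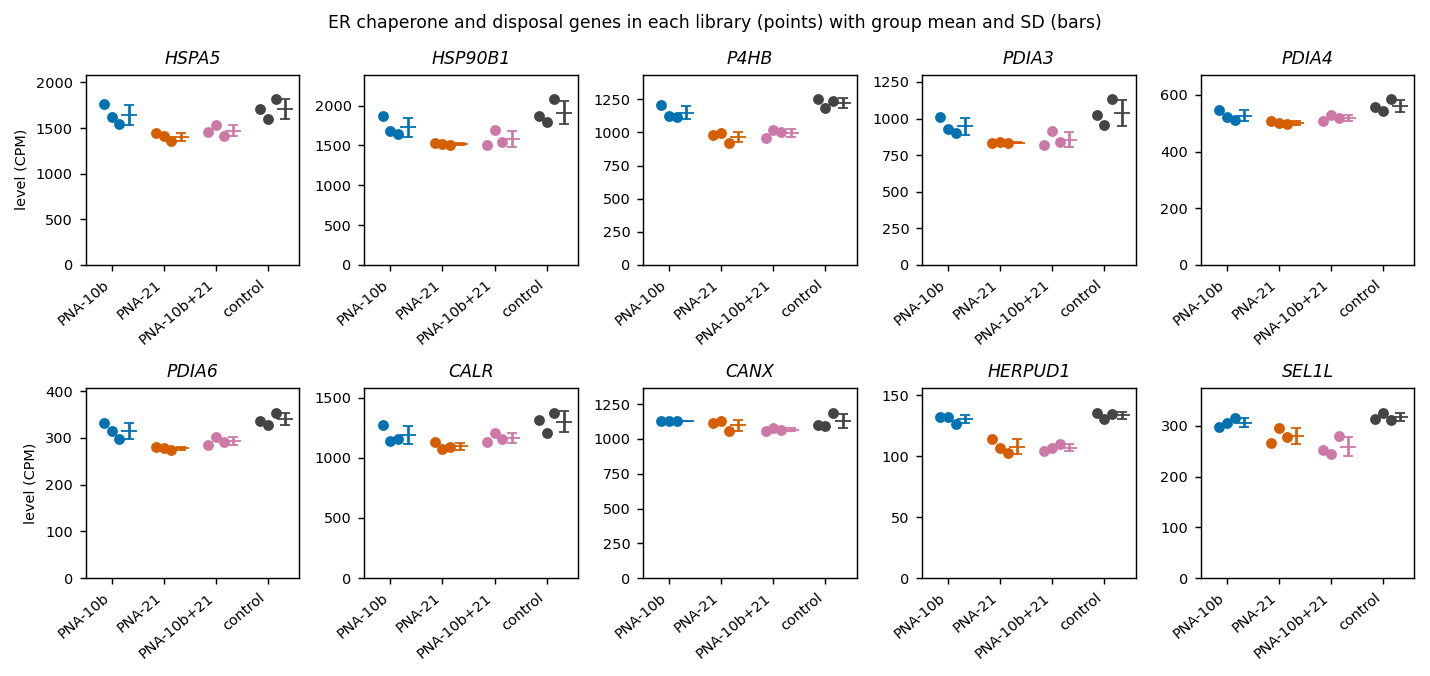
Level of each of the 10 genes in every library (points, CPM, linear axes from 0) for PNA-10b, PNA-21, PNA-10b+21 and control, with the group mean and SD (bars, n = 3). In 9 panels all PNA-21 points lie below all control points; CANX is the exception.

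HSPA5, known as BiP, is the main Hsp70 chaperone of the ER and holds the stress sensors inactive while it is free. Its level was 1762, 1618 and 1544 CPM in PNA-10b, 1443, 1410.5 and 1358 CPM in PNA-21, 1454, 1537 and 1418 CPM in PNA-10b+21, and 1708, 1596 and 1815 CPM in control. Every library with sgPNA-21 lay below every library without it. The log2 fold change was -0.28 ± 0.06 (SE) in PNA-21 (adjusted p = 0.00115) and -0.22 ± 0.06 in PNA-10b+21 (adjusted p = 0.00898), by edgeR's quasi-likelihood test. In PNA-10b it was -0.06 ± 0.06 (adjusted p = 0.657). Without control replicate 3 the fall in PNA-10b+21 no longer passed (adjusted p = 0.0547).

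HSP90B1, known as GRP94, is the Hsp90 chaperone of the ER, with integrins and Toll-like receptors among its clients. It stood at 1866, 1679.7 and 1646 CPM in PNA-10b, 1525, 1515 and 1500.2 CPM in PNA-21, 1511, 1695 and 1545 CPM in PNA-10b+21, and 1869, 1793 and 2079 CPM in control. The PNA-21 libraries were nearly alike and lay below all others except 1 of PNA-10b+21, while the PNA-10b range overlapped that of control. The gene fell by 0.34 ± 0.06 on the log2 scale in PNA-21 (adjusted p = 0.000372, edgeR) and by 0.27 ± 0.06 in PNA-10b+21 (adjusted p = 0.0024). Its change of -0.15 ± 0.06 in PNA-10b did not pass (adjusted p = 0.184).

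P4HB, or protein disulfide isomerase, forms and rearranges disulfide bonds and is also the beta subunit of collagen prolyl 4-hydroxylase. It measured 1204, 1124 and 1119 CPM in PNA-10b, 980.3, 996 and 924 CPM in PNA-21, 961, 1016 and 1005 CPM in PNA-10b+21, and 1249.9, 1183 and 1237 CPM in control. The groups with and without sgPNA-21 were separated by a gap, and PNA-10b overlapped control. P4HB and HSP90B1 had the largest log2 fold changes of the 10 genes in PNA-21. That of P4HB was -0.34 ± 0.05 (adjusted p = 4.38e-05, edgeR), and reached -0.30 ± 0.05 in PNA-10b+21 (adjusted p = 0.000156). In PNA-10b the change was -0.09 ± 0.05 (adjusted p = 0.325).

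PDIA3, also called ERp57, works on glycoproteins handed over by calnexin and calreticulin. Levels were 1013, 927 and 902 CPM in PNA-10b, 831, 837 and 833 CPM in PNA-21, 816, 914 and 838 CPM in PNA-10b+21, and 1023, 957 and 1131 CPM in control. Again every library with sgPNA-21 was below every control library, by a log2 fold change of -0.31 ± 0.06 in PNA-21 (adjusted p = 0.000651, edgeR) and -0.28 ± 0.06 in PNA-10b+21 (adjusted p = 0.00198). The processed copy PDIA3P1 had 1100 to 1570 counts per library. It also fell, by 0.39 ± 0.07 in PNA-21 (adjusted p = 0.000175) and by 0.28 ± 0.07 in PNA-10b+21 (adjusted p = 0.00305). How reads were divided between the 2 was not tested, so both values are less certain than those of genes without a close copy.

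PDIA4 and PDIA6 are further members of the disulfide isomerase family, and PDIA6 is known to damp the stress sensor IRE1. PDIA4 was at 546, 523 and 509.6 CPM in PNA-10b, 508, 501 and 495 CPM in PNA-21, 508, 528 and 518 CPM in PNA-10b+21, and 556, 543 and 584 CPM in control. Its change was small, with -0.16 ± 0.05 in PNA-21 (adjusted p = 0.0134, edgeR) and -0.11 ± 0.05 in PNA-10b+21, which missed the threshold (adjusted p = 0.0785) although all 3 libraries lay below control. Without control replicate 3, PDIA4 no longer passed in PNA-21 (adjusted p = 0.0655), and without control replicate 2 it did pass in PNA-10b+21 (adjusted p = 0.0499).

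PDIA6 was at 332, 314 and 297 CPM in PNA-10b, 280.1, 279 and 275 CPM in PNA-21, 285, 302 and 291 CPM in PNA-10b+21, and 337, 328 and 354 CPM in control. The PNA-21 libraries were the lowest of all 12, and PNA-10b overlapped control. The log2 fold changes were -0.29 ± 0.05 in PNA-21 (adjusted p = 0.000192, edgeR) and -0.21 ± 0.05 in PNA-10b+21 (adjusted p = 0.00275). The gene on the opposite strand that shares 25.2% of its exon bases is ATP6V1C2.

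CALR and CANX encode the lectin chaperones, soluble calreticulin and membrane-bound calnexin, which bind the same trimmed sugar on new glycoproteins. CALR stood at 1274, 1143 and 1156 CPM in PNA-10b, 1128, 1071 and 1094 CPM in PNA-21, 1134, 1207 and 1153 CPM in PNA-10b+21, and 1317, 1204 and 1375 CPM in control. It fell by 0.24 ± 0.06 on the log2 scale in PNA-21 (adjusted p = 0.00286, edgeR). In PNA-10b+21 the groups overlapped by 1 library, and the fall of 0.16 ± 0.06 was just past the threshold (adjusted p = 0.0445). That call was lost when any of 8 single libraries was left out (adjusted p up to 0.19).

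CANX was the 1 member that did not pass in PNA-21. Its level was 1132, 1127 and 1129 CPM in PNA-10b, 1111, 1130.3 and 1054 CPM in PNA-21, 1056, 1082 and 1066 CPM in PNA-10b+21, and 1100.5, 1095 and 1189 CPM in control. The PNA-21 and control ranges overlapped, whereas all PNA-10b+21 libraries lay below all control libraries. The log2 fold change was 0.00 ± 0.05 with PNA-10b (adjusted p = 0.993), -0.04 ± 0.05 with PNA-21 (adjusted p = 0.598) and -0.08 ± 0.05 with PNA-10b+21 (adjusted p = 0.249), by edgeR. The 95% interval in PNA-21 ran from -0.14 to 0.06, which leaves out the fall estimated for each of the other 9 genes. In PNA-10b+21 it ran from -0.18 to 0.02, which takes in the estimates for PDIA4 and CALR. Ratios of CANX to P4HB and to CALR within a library do not depend on library scaling. P4HB had the largest estimated fall of the members in PNA-21, so the ratio to it restates those values and is not separate support. Per count of P4HB there were 0.940 to 1.01 counts of CANX with PNA-10b, 1.13 to 1.14 with PNA-21, 1.06 to 1.10 with PNA-10b+21 and 0.880 to 0.961 in control. Per count of CALR there were 0.888 to 0.986 with PNA-10b, 0.964 to 1.06 with PNA-21, 0.896 to 0.931 with PNA-10b+21 and 0.835 to 0.910 in control. The PNA-21 libraries lay above the control libraries in both ratios. CANX, like HSPA5, HSP90B1, PDIA6 and CALR, has an ERSE in at least 1 promoter window. CANX has 4 promoter windows in all, counted with or without the motif, and the part of the motif in these changes was not tested.

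**Figure D3:**
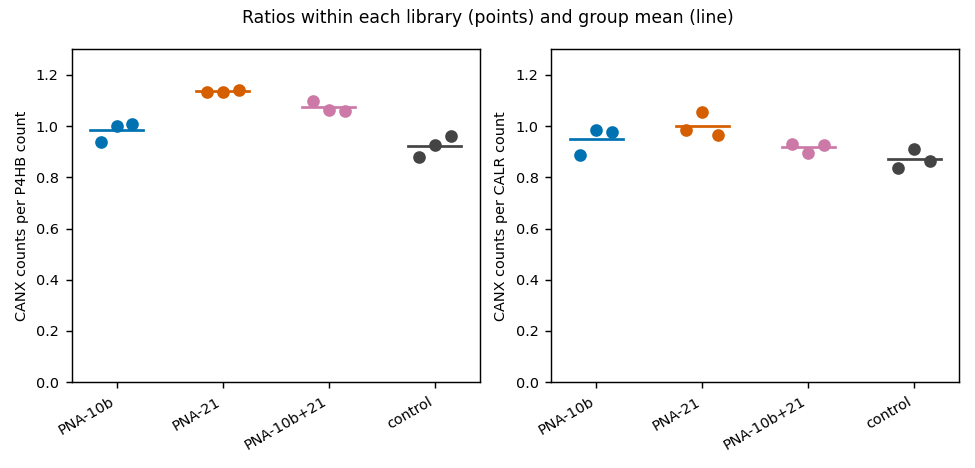
Counts of CANX per count of P4HB (left) and per count of CALR (right) within each library (points), with the group mean (line), for PNA-10b, PNA-21, PNA-10b+21 and control; the y axes start at 0. Against P4HB, the member with the largest estimated fall in PNA-21, the ratio is 1.13 to 1.14 in PNA-21 and 0.880 to 0.961 in control.

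HERPUD1 and SEL1L serve disposal. HERPUD1 organizes the degradation complex in the ER membrane, and SEL1L holds its ubiquitin ligase HRD1 in place. HERPUD1 was at 132, 132 and 127 CPM in PNA-10b, 114, 106 and 103 CPM in PNA-21, 104, 107 and 110.1 CPM in PNA-10b+21, and 136, 130.2 and 135 CPM in control. The 6 libraries with sgPNA-21 all lay below the 6 without it, and the estimates of both treatments were close, at -0.31 ± 0.05 in PNA-21 (adjusted p = 0.000108, edgeR) and -0.32 ± 0.05 in PNA-10b+21 (adjusted p = 7.56e-05). In PNA-10b it was -0.03 ± 0.05 (adjusted p = 0.766).

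SEL1L was at 297, 306 and 315 CPM in PNA-10b, 266, 296 and 277 CPM in PNA-21, 252, 245 and 280.3 CPM in PNA-10b+21, and 313, 326 and 312 CPM in control. It was the only member whose point estimate of the fall was over 0.1 log2 deeper in PNA-10b+21, at -0.29 ± 0.06 (adjusted p = 0.000477, edgeR), than in PNA-21, at -0.18 ± 0.05 (adjusted p = 0.0171). The difference between the 2 treatments, -0.11 ± 0.06, did not pass (adjusted p = 0.597). The call in PNA-21 was lost without control replicate 2, without PNA-21 replicate 1 and when libraries were scaled by size only (adjusted p up to 0.0946).

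**Figure D4:**
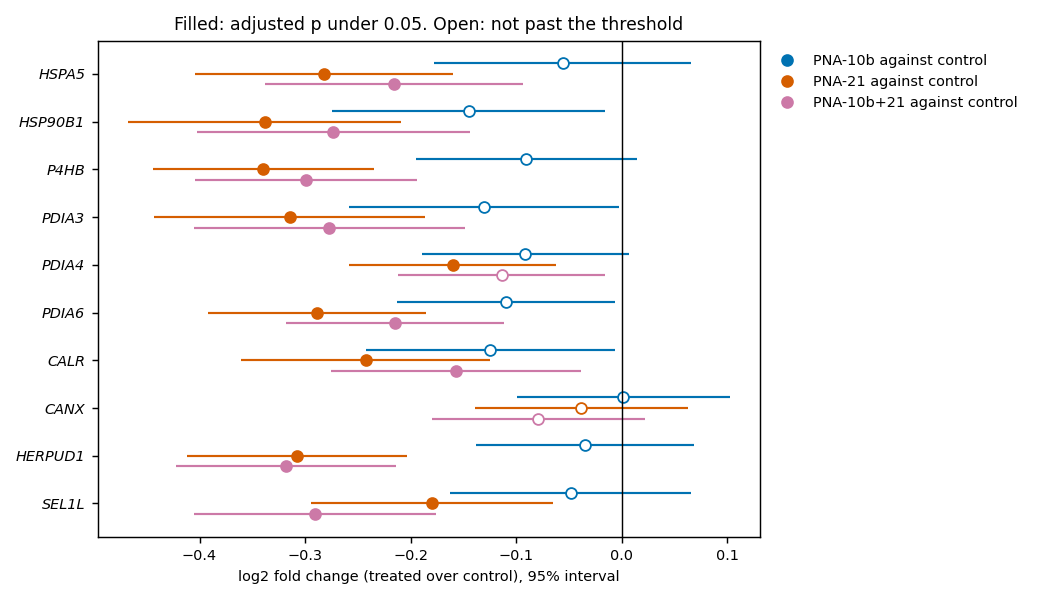
Log2 fold change (x axis) of the 10 genes in PNA-10b, PNA-21 and PNA-10b+21 over control, with 95% intervals from the fit (n = 3 libraries per group); filled points passed an adjusted p under 0.05 and open points did not. All PNA-10b points are open, and CANX is open in all 3 comparisons.

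All treated groups received nanoparticles, but PNA-10b+21 carried 150 nM of each sgPNA and the single treatments 150 nM of one. Whether the particle load was equal is not given in the sources used here. When sgPNA-21 was added to sgPNA-10b (PNA-10b+21 against PNA-10b), 3 of the 10 genes fell and 0 rose, where 5.1% of all genes fell and 4.61% rose. These were HERPUD1 (-0.28 ± 0.05, adjusted p = 0.0009), SEL1L (-0.24 ± 0.06, adjusted p = 0.00744) and P4HB (-0.21 ± 0.05, adjusted p = 0.011), by edgeR. All 10 log2 fold changes were negative, with a median of -0.14. They were smallest for PDIA4 (-0.02 ± 0.05, adjusted p = 0.83) and CALR (-0.03 ± 0.06, adjusted p = 0.79), by edgeR. For 5 genes the PNA-10b+21 libraries all lay below the PNA-10b libraries, as for 13.4% of all genes. Without PNA-10b+21 replicate 1 the count was 1, because P4HB (adjusted p up to 0.0773) and SEL1L (adjusted p up to 0.0575) no longer passed.

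In PNA-21 against PNA-10b, at equal dose, 4 fell and 0 rose, where 3.88% of all genes fell and 2.91% rose. The 4 were HERPUD1 (-0.27 ± 0.05, adjusted p = 0.0017), P4HB (-0.25 ± 0.05, adjusted p = 0.00424), HSPA5 (-0.23 ± 0.06, adjusted p = 0.0233) and PDIA6 (-0.18 ± 0.05, adjusted p = 0.0337), by edgeR. The levels of 9 genes in PNA-21 lay below those in all PNA-10b libraries, the exception being CANX, where 12.9% of all genes did so. The count was 2 without PNA-10b replicate 1 or 2, and likewise without PNA-21 replicate 2 or 3, where HSPA5 and PDIA6 no longer passed. HSP90B1 (-0.19 ± 0.06, adjusted p = 0.066) and PDIA3 (-0.18 ± 0.06, adjusted p = 0.0758) missed the threshold with edgeR and passed with DESeq2.

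When sgPNA-10b was added to sgPNA-21 (PNA-10b+21 against PNA-21), 0 of the 10 genes passed with edgeR or DESeq2 and 0 had an unadjusted p under 0.05, against 8.62% of all genes. The median log2 fold change was 0.04, with values from -0.11 (SEL1L) to 0.09 (CALR), whose 95% interval ran from -0.03 to 0.20. Over all genes, 0% rose and 0% fell with edgeR, although 1354 had an unadjusted p under 0.05, while DESeq2 called 25 lower and 0 higher. Departure from additive effects was tested as the change of PNA-10b+21 over PNA-10b minus that of PNA-21 over control. The second of these changes compares cells with nanoparticles to cells without. In the first, both groups received them, at loads that are not given. An effect of the particles therefore also enters this term and cannot be told apart from a departure from additivity. The term passed for 0 of the 10 genes with edgeR and DESeq2, where 1.48% of all genes were higher and 1.64% lower. HSP90B1 (0.21 ± 0.09), CALR (0.21 ± 0.08) and PDIA6 (0.18 ± 0.07) had an unadjusted p under 0.05 (adjusted p of 0.151 to 0.190), as had 18.7% of all genes, and CALR passed without control replicate 2 (adjusted p = 0.0418).

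Averaged over the 10 genes as z-scores of log2 CPM, the libraries stood at 0.91, 0.28 and 0.08 in PNA-10b, -0.69, -0.70 and -1.14 in PNA-21, -0.99, -0.37 and -0.65 in PNA-10b+21, and 1.01, 0.58 and 1.69 in control. Control replicate 3 was the highest of the 12. It also lay farthest out among the control libraries on the first principal component of all genes, at -32.4 where the other control libraries were at -22.9 and -20.3. Leaving it out kept 8 of 9 falls in PNA-21 and 6 of 8 in PNA-10b+21. As a description, the 5 other genes whose log2 CPM followed this average most closely over the 12 libraries were TGFBR2, a receptor of TGF-beta (Pearson r = 0.99), GLG1 (0.98), TGFBI, a secreted matrix protein induced by TGF-beta (0.98), KDM2A, a histone demethylase (0.98), and MYOF (0.98). Their log2 fold changes in PNA-21 were -0.29 (TGFBR2), -0.40 (GLG1), -0.68 (TGFBI), -0.21 (KDM2A) and -0.34 (MYOF). The 12 points share group means and library scaling.

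The other ER genes held changes in both directions. Their lists were chosen by role, and counts below are genes past the adjusted p of 0.05. Over all genes tested, 2.75% rose and 3.74% fell in PNA-10b. The shares were 15.2% and 14.6% in PNA-21, and 13.6% and 13.4% in PNA-10b+21. Among 11 tested sensors and factors of the unfolded protein response, 1 rose and 1 fell in PNA-10b, 1 rose and 2 fell in PNA-21, and 0 rose and 2 fell in PNA-10b+21, with list medians of -0.01, -0.02 and -0.01. The falls with sgPNA-21 were CREB3L1 and MBTPS1. CREB3L1, a membrane-bound factor that drives collagen secretion genes, was at -0.39 ± 0.06 in PNA-21 (adjusted p = 3.25e-05, edgeR). MBTPS1, a protease that takes part in the release of ATF6, was at -0.26 ± 0.05 there (adjusted p = 0.000614). MBTPS1 also fell in PNA-10b, by 0.23 ± 0.05. DDIT3, or CHOP, rose in PNA-10b (0.44 ± 0.08, adjusted p = 0.00127) and was at 0.10 ± 0.08 in PNA-21 (adjusted p = 0.364). Without control replicate 3 or PNA-10b replicate 2, MBTPS1 no longer passed in PNA-10b (adjusted p up to 0.0782). The rise counted in PNA-21 was lost without control replicate 1 or 3, or PNA-21 replicate 1 or 2.

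Targets of the PERK branch were in part higher. Of 6 tested, 3 rose with PNA-10b, 3 with PNA-21 and 1 with PNA-10b+21, and 0 fell in any of the 3, with list medians of 0.38, 0.30 and 0.19. TRIB3, a pseudokinase induced by ATF4 and CHOP, rose by 0.64 ± 0.10 with PNA-10b (adjusted p = 0.000788, edgeR), 0.44 ± 0.11 with PNA-21 (adjusted p = 0.00332) and 0.30 ± 0.11 with PNA-10b+21 (adjusted p = 0.0452). SESN2, a stress-induced sestrin, rose in PNA-10b (0.37 ± 0.09) and PNA-21 (0.29 ± 0.09), and ATF3 rose in PNA-10b (0.40 ± 0.07) with 0.06 ± 0.07 in PNA-21. Without control replicate 3 or PNA-21 replicate 2 only 1 of the 6 rose in PNA-21, and SESN2 no longer passed there (adjusted p up to 0.112). TRIB3 in PNA-10b+21 lost its call without control replicate 1 or 3, PNA-21 replicate 3 or any PNA-10b+21 library (adjusted p up to 0.177). SESN2 in PNA-10b lost its call without control replicate 3 or PNA-10b replicate 2 (adjusted p up to 0.117). These genes also respond to amino acid shortage and other signals that act through ATF4.

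Partners of BiP and GRP94 changed little: of 13 tested, 1 fell in PNA-10b, 1 rose and 2 fell in PNA-21, and 1 rose in PNA-10b+21. SDF2L1, a partner of BiP's J-domain proteins that has an ERSE-II in its window, rose by 0.36 ± 0.10 in PNA-21 (adjusted p = 0.0129, edgeR), opposite to HERPUD1, which carries the same motif. SIL1, a nucleotide exchange factor of BiP, fell in PNA-10b (-0.24 ± 0.07) and PNA-21 (-0.18 ± 0.07), and SDF2 fell in PNA-21 (-0.18 ± 0.06). These calls were fragile: SDF2L1 in PNA-21 was lost without control replicate 3 or PNA-21 replicate 2 (adjusted p up to 0.0701), and SDF2 without control replicate 1 or 3 or PNA-21 replicate 2 (adjusted p up to 0.138). SIL1 was lost in PNA-10b without any one control or PNA-10b library, and in PNA-21 under most single omissions (adjusted p up to 0.125 and 0.216). In PNA-10b+21, 1 partner fell when PNA-10b replicate 1, PNA-10b+21 replicate 3 or control replicate 3 was left out. HYOU1, a large ER chaperone, was listed at 0 to 2 counts per library and was not tested. The sources do not say how its reads were counted, and this value cannot be read as absence of expression. Of 14 other disulfide enzymes, 1 fell in PNA-10b, 2 rose and 4 fell in PNA-21, and 5 fell in PNA-10b+21. PDIA5 fell in all 3 (-0.37 ± 0.05, -0.46 ± 0.05 and -0.47 ± 0.05 in PNA-10b, PNA-21 and PNA-10b+21). ERO1A, the oxidase that recharges protein disulfide isomerase and is known to be induced by hypoxia, fell in PNA-21 (-0.33 ± 0.08) and PNA-10b+21 (-0.54 ± 0.08), as did PRDX4 (-0.32 ± 0.06 and -0.33 ± 0.06). Without control replicate 1, or PNA-10b+21 replicate 1 or 2, 3 enzymes fell in PNA-10b+21. Without control replicate 1 or 3 or any PNA-21 library, 1 rose in PNA-21.

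Of 9 genes of glycan trimming and the calnexin cycle, 1 fell with PNA-10b, 5 with PNA-21 and 4 with PNA-10b+21, while 1 rose in each. The gene that rose was CLGN, a homologue of calnexin known from the testis (0.35 ± 0.08, 0.53 ± 0.07 and 0.32 ± 0.08 in PNA-10b, PNA-21 and PNA-10b+21). MAN1B1, a mannosidase that marks glycoproteins for disposal, fell in all 3 (-0.38 ± 0.05 in PNA-21, adjusted p = 8.07e-06, edgeR). LMAN1, a cargo receptor for export, fell in PNA-10b+21 (-0.30 ± 0.06). Of 21 other genes of ER-associated degradation, 1 fell in PNA-10b, 3 rose and 1 fell in PNA-21, and 4 rose and 1 fell in PNA-10b+21. OS9, a lectin that works with SEL1L, fell by 0.38 ± 0.05 in PNA-21 (adjusted p = 5.92e-06), whereas NPLOC4, a cofactor of the extracting ATPase p97, rose by 0.18 ± 0.05. Without PNA-21 replicate 1 or 2, 1 degradation gene rose in PNA-21, and without PNA-10b+21 replicate 1, 2 rose in PNA-10b+21. In PNA-10b, CLGN was lost without PNA-10b replicate 2 (adjusted p = 0.0672), and MAN1B1 and OS9 were lost without that library or without control replicate 3 (adjusted p up to 0.0634 and 0.128). OS9 was also lost there without control replicate 1 or PNA-10b replicate 3.

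Among the ER lists, collagen hydroxylation and folding genes had the lowest medians in all 3 comparisons with control, at -0.23 with PNA-10b, -0.30 with PNA-21 and -0.28 with PNA-10b+21. Of 8 tested, 5, 7 and 6 fell and 0 rose. P4HA1 and P4HA2, the catalytic subunits that pair with P4HB in prolyl 4-hydroxylase, fell by 0.75 ± 0.07 and 0.73 ± 0.06 in PNA-21 (adjusted p = 1.77e-07 and 3.06e-08, edgeR), against 0.34 ± 0.05 for P4HB. The collagen chaperone SERPINH1 fell by 0.39 ± 0.05. All 3 of these also fell in PNA-10b, where 0 of the 10 members passed, by 0.31 ± 0.07 (P4HA1), 0.34 ± 0.06 (P4HA2) and 0.24 ± 0.05 (SERPINH1). Of 14 translocon and signal peptidase genes, 0 passed in PNA-10b, 3 rose and 4 fell in PNA-21, and 1 rose and 5 fell in PNA-10b+21. Examples in PNA-21 are SPCS3 (0.51 ± 0.09), SSR3 (0.26 ± 0.05) and SEC61G (-0.24 ± 0.06). Among 3 KDEL receptors, which return escaped chaperones to the ER, KDELR3 fell in each treatment (-0.29 ± 0.06, -0.43 ± 0.06 and -0.38 ± 0.06 in PNA-10b, PNA-21 and PNA-10b+21). Without control replicate 3 or PNA-10b replicate 2, neither KDELR3 nor P4HA1 passed in PNA-10b (adjusted p up to 0.0562 and 0.0723). The translocon falls in PNA-10b+21 numbered 1 when PNA-10b+21 replicate 1 was left out, 3 when its replicate 3 was, and 2 when control replicate 1 or 3 was.

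**Figure D5:**
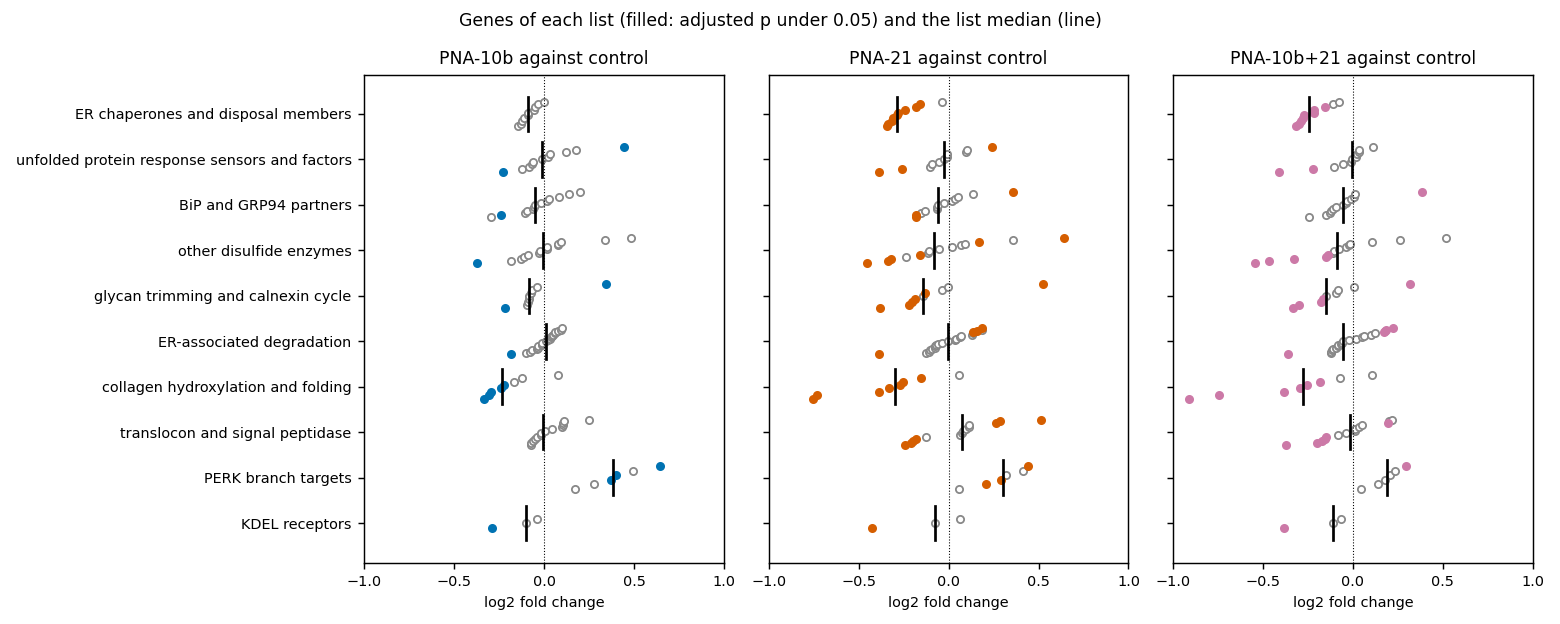
Log2 fold change (x axis) of every tested gene of the 10 members and of 9 further ER lists in PNA-10b, PNA-21 and PNA-10b+21 over control; filled points passed an adjusted p under 0.05, open points did not, and black lines are list medians. The members and the collagen folding genes lie mostly left of 0 in PNA-21 and PNA-10b+21, and the PERK targets lie right of it.

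Other genes with the promoter motifs were also looked at. Of 11 tested genes outside the members with an ERSE, 0 passed in PNA-10b, 3 rose and 1 fell in PNA-21, and 1 fell in PNA-10b+21, with a median log2 fold change of 0.02 in PNA-21. The 3 that rose were ERO1B (0.64), SERP1 (0.27) and TRIM5 (0.20), and the gene that fell was SYNPO (-1.20). They were named after their values were seen. Of 11 tested genes outside the members with an ERSE-II, 1 rose and 0 fell in PNA-10b, and 4 rose and 2 fell in PNA-21. In PNA-10b+21, 6 of them rose and 2 fell. Their median log2 fold changes were 0.05, 0.15 and 0.16 in PNA-10b, PNA-21 and PNA-10b+21. Over all genes tested, 2.75% rose and 3.74% fell in PNA-10b. The shares were 15.2% and 14.6% in PNA-21, and 13.6% and 13.4% in PNA-10b+21.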

How the data were processed

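The authors deposited raw counts per Ensembl gene for 12 libraries, whole numbers without normalization, and all 12 columns matched a labelled sample. HISAT2 2.1.0, SAMtools 1.7, HTSeq 0.11.0 and hg38 are named in the submitters' processing notes; the sources used here give neither the strand setting nor the annotation release. Libraries were stranded mRNA preparations, per the labels' protocols.

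Genes passing filterByExpr (minimum count 10; 15715 of 35741, 99.8% of counts) entered 1 quasi-likelihood fit of all 12 libraries in edgeR 4.0.16 (R 4.3.3) with TMM scaling and a mean per group. P-values were Benjamini-Hochberg adjusted over all tested genes, with a threshold of 0.05, and log2 fold changes carry standard errors of the fit. Replicates differed by more than sampling noise in every pair. DESeq2 1.42.0, other scalings, no filter, fits of the compared groups only, a replicate block and each library left out were the alternatives. Promoter and microRNA sequences came from RefSeq (GRCh38.p14), 3′ UTRs and exons from GENCODE release 29.

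The members and lists were chosen with earlier results of these data known. Named were the members, up to 3 genes per list by smallest p-value among those past the threshold against control, and the 5 genes most correlated with the members' average. 1 gene named by this rule is not reported here.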

Additional observations from a re-analysis of the deposited data

Results flagged for a closer look

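Over all genes tested, the interaction (PNA-10b+21 over PNA-10b, minus PNA-21 over control) passed in edgeR for 1.48% higher and 1.64% lower (adjusted p under 0.05). Over the 9 other ER lists it passed for 6 genes higher and 7 lower of 99 tested. Of these, 11 are list genes named for a small p against control, whose libraries also enter the interaction. PNA-21 over control compares cells with nanoparticles to cells without. In PNA-10b+21 over PNA-10b both groups received them, at loads that are not given. An effect of the particles therefore cannot be told apart from one of sgPNA-10b on the response to sgPNA-21. The log2 interaction was negative for TRIB3 (-0.79), SPCS3 (-0.56), CLGN (-0.55), DDIT3 (-0.51), SESN2 (-0.46) and ATF3 (-0.41). It was positive for PDIA5 (0.36), KDELR3 (0.33), P4HA2 (0.33), MAN1B1 (0.26) and MBTPS1 (0.26). The calls of TRIB3, CLGN and PDIA5 held in all 12 fits that left out 1 library. DDIT3 passed in 9 of these 12, ATF3 in 7, SPCS3 and KDELR3 in 5, MAN1B1 in 4, and MBTPS1, P4HA2 and SESN2 in 3. The 10 chaperone and disposal genes had no interaction past the threshold in the fit of all libraries.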

How the results depend on the processing

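No member changed direction with a call under any alternative. Among alternative values of the members' fold changes, 29 lost a call, 13 gained one and 1208 did neither. The number of members that fell in PNA-21 was 8 to 9 with a library left out, 9 with the replicate block, DESeq2 or no filter, and 8 with scaling by library size only. In PNA-10b+21 it was 6 to 9 with a library left out, 9 with DESeq2, and 7 with library size only, the compared groups only or the replicate block, which lost CALR. Against PNA-10b it was 1 to 3 for PNA-10b+21 and 2 to 6 for PNA-21 with a library left out. With DESeq2 these were 4 and 6. The interaction gave 0 to 1 member higher with a library left out. Same-numbered libraries of different groups had correlations of their deviations from -0.058 to 0.109 (median 0.023). Other pairs had -0.087 to 0.118 (median -0.010). These ranges overlap and do not settle whether replicate numbers pair the libraries. With the replicate block, 562 genes rose and 709 fell in PNA-10b, against 432 and 587 without it. Scaling by library size only turned 2388 higher and 2296 lower genes in PNA-21 into 3222 and 1733, and 2131 and 2112 in PNA-10b+21 into 2901 and 1667. Counts of list genes moved by over 1.5 times, or to or from 0, in 246 alternative values. In 2004 they moved by less or not at all, and the cause was not tested. Among values past the threshold in neither fit, 57 of 2281 changed sign. With 3 libraries per group, the members' 95% intervals in comparisons of 2 groups span about 0.1 log2 on each side. Smaller changes were not resolved. Intervals of the interaction are wider, for example 0.03 to 0.39 for HSP90B1, so that term was resolved less well.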
